A study of Mus musculus with 12 samples.

Results

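The Notch pathway was followed through 10 genes in brainstem progenitors infected with vectors for wild-type or R206H ACVR1, either alone or together with H3.1K27M. The genes were the ligands *Dll1*, *Dll3* and *Jag1*, the receptors *Notch1*, *Notch2* and *Notch3*, and the target genes *Hes1*, *Hes5*, *Hey1* and *Heyl*. They were chosen by name, as the rows of the count tables whose Ensembl mouse gene identifier maps to these symbols. All 10 were found among the 54532 genes counted in each of 12 libraries, and all 10 passed the filter on low counts in every comparison.

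RNA-Seq was made from progenitors isolated from the brainstem of C57BL/6 pups at postnatal days 3 to 5 and grown without serum in EGF and FGF2. The pups carried Nestin TVA, a transgene in which the nestin promoter drives the receptor for RCAS viruses, and floxed p53 with no Cre named for these cultures. Only cells that express nestin can take up the virus, and the share of infected cells is not given in the sources used here. The study asked what a mutation of the BMP receptor ACVR1 does in these progenitors when the histone mutation H3.1K27M is present or absent.

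The 4 groups held 3 libraries each. The group named ACVR1 WT received an RCAS vector with human wild-type ACVR1 alone, and the group ACVR1 R206H received the R206H form alone. The group ACVR1 WT and H3.1K27M received wild-type ACVR1 together with the lysine-to-methionine histone H3.1, and the group ACVR1 R206H and H3.1K27M received both mutant genes. Strain, age, transgene and floxed p53 were common to all 4 groups, and every group carried an ACVR1 vector. The groups with H3.1K27M received the histone in addition, and the labels name no group with wild-type H3.1 or an empty vector in its place. The histone mutation thus cannot be told apart from the addition of a vector. Below, raised or lowered by H3.1K27M describes a difference between these groups. The labels do not say whether the libraries of a group came from separate cultures, so p-values measure the spread between these libraries, which may be technical.

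Notch signalling works between touching cells. A Delta or Jagged ligand on one cell binds a Notch receptor on its neighbour, the receptor is cut by ADAM proteases and then by gamma-secretase, and the freed intracellular part joins the DNA-binding protein RBPJ and Mastermind to switch on genes of the Hes and Hey families. These are repressors of the proneural factors, and in the embryonic and early postnatal brain they hold neural progenitors back from becoming neurons.

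Total counts ran from 19315020 to 26456257 per library, with a median of 20994196. ACVR1 WT replicate 1 stood apart from the rest of its group. The lowest correlation of log values within its group was 0.961, against 0.997 in each other group, and the biological coefficient of variation was 0.273 in the ACVR1 WT group against 0.0451 to 0.0594 in the others. Results for the 10 genes in comparisons with the ACVR1 WT group are therefore given with and without this library. For *Dll3*, *Jag1* and *Notch1* it lay within the range of the ACVR1 R206H libraries, and the rest of its group lay outside that range. Leaving it out thus removes the ACVR1 WT library most like ACVR1 R206H for these genes, which favours a difference. The other two ACVR1 WT libraries, on which the values without it rest, also differed from each other, with a chi-square per degree of freedom over genes of 16.9 against 2.94 to 7.19 for pairs in the other 3 groups. The astrocyte marker sum, over 5 genes, was 2898 counts per 1000000 counts (CPM) in that library, and 7238 and 11130 CPM in the other two ACVR1 WT libraries, against 3445 to 5602 CPM in the other 3 groups. Neural progenitor markers, 7 genes including *Nes* and *Sox2*, summed to 3857 to 5777 CPM over the 12 libraries, and none was at 0. *Fabp7* and *Vim* made up most of that sum, with group means of 2247 to 2397 CPM and 1642 to 2603 CPM. In bulk RNA, fewer cells of a type and less RNA per cell cannot be told apart.

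The mouse *Acvr1* row gave a mean of 50.7 ± 3.87 CPM (SD, n = 3) in the ACVR1 WT group, 93.5 ± 17.4 with ACVR1 R206H, 232 ± 115 with ACVR1 WT and H3.1K27M, and 877 ± 273 with ACVR1 R206H and H3.1K27M. The vectors carry human ACVR1, and reads from the vector and from the mouse gene cannot be told apart in this row. The level differed between the groups with H3.1K27M (log2 fold change 1.91, edgeR adjusted p = 0.000451), and the count was also higher with H3.1K27M than without it (2.20, edgeR adjusted p = 0.00745, with ACVR1 WT, and 3.23, edgeR adjusted p = 1.27e-07, with ACVR1 R206H). Without H3.1K27M the row was at 46.2 to 53.3 CPM with ACVR1 WT and at 81.6 to 114 CPM with ACVR1 R206H (log2 fold change 0.89, edgeR adjusted p = 0.94, DESeq2 adjusted p = 0.000286, and 0.93 with edgeR adjusted p = 0.00502 without ACVR1 WT replicate 1). All 4 comparisons thus came with a higher *Acvr1* count, and the part of that difference in the results below was not tested.

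In the largest change among the 10 genes, *Hes5* was 7.54-fold to 7.55-fold lower in both groups with H3.1K27M, whichever ACVR1 was present. The Delta ligands *Dll1* and *Dll3* were lower and the Jagged ligand *Jag1* was higher with H3.1K27M, and among the libraries with H3.1K27M the same 3 ligands shifted further in the same directions with R206H. *Hes1* did not follow *Hes5*, and its log2 fold change for H3.1K27M with ACVR1 WT was 0.63 (edgeR adjusted p = 0.0765). *Notch1*, *Notch2*, *Notch3* and *Hey1* differed by 1.31-fold at most wherever they passed the test with all libraries.

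**Figure D1:**
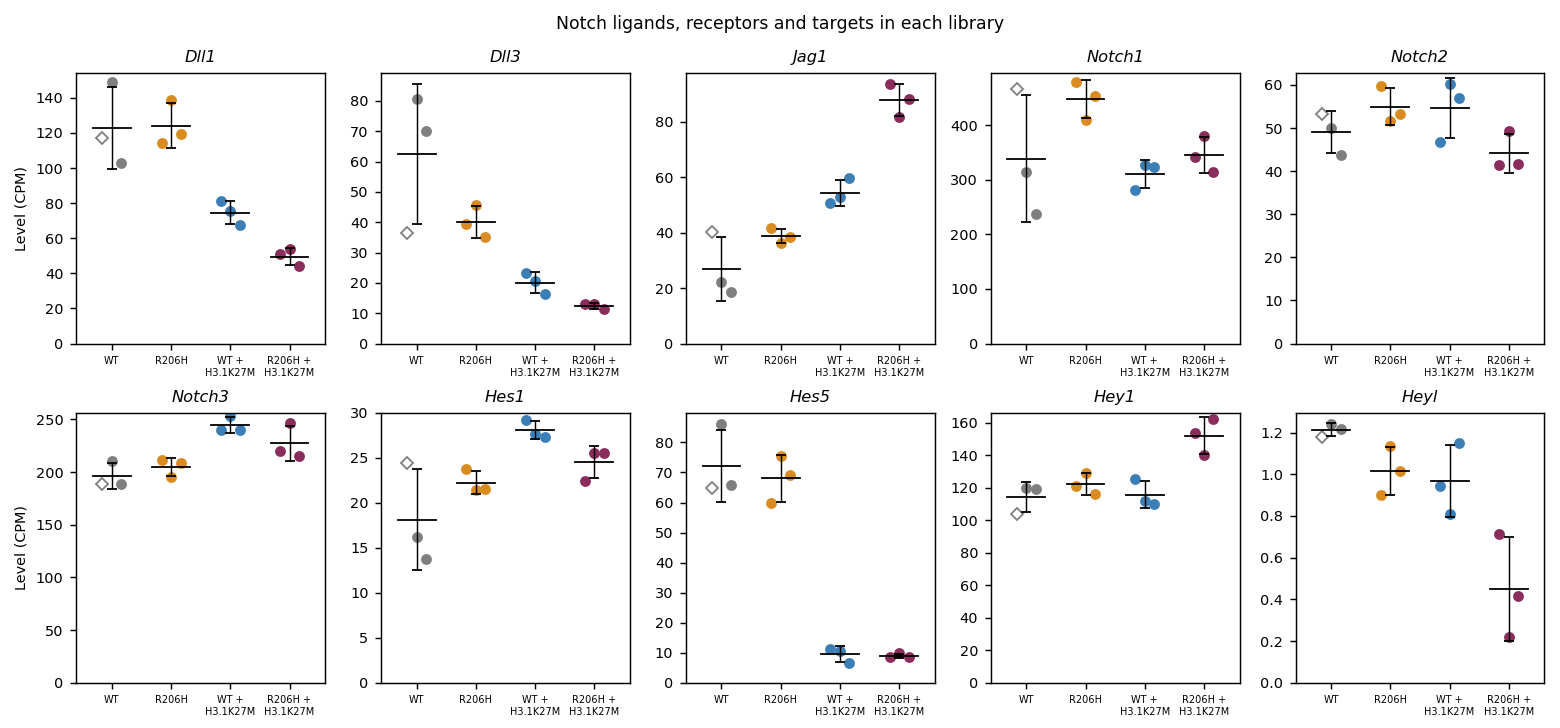
Level of each gene in CPM (vertical axis, from 0) in the 12 libraries, by group on the horizontal axis; points are libraries, horizontal lines are group means, bars are SD (n = 3) and the open diamond is ACVR1 WT replicate 1. *Hes5* sits at 59.9 to 86.0 CPM without H3.1K27M and at 6.51 to 11.4 CPM with it, and *Jag1* is highest in the 3 libraries with ACVR1 R206H and H3.1K27M.

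Differences were tested with edgeR's quasi-likelihood test on the counts, with p-values adjusted by the Benjamini-Hochberg method over all genes tested and a threshold of 0.05. Of the 10 genes, 5 passed for H3.1K27M with ACVR1 WT (2 higher and 3 lower), where 23.0% of all 15385 genes tested passed (12.6% higher and 10.4% lower). Without ACVR1 WT replicate 1, 6 of the 10 passed there, *Hes1* being the sixth, and 52.6% of all genes. With ACVR1 R206H, 9 passed for H3.1K27M (3 higher and 6 lower), where 56.5% of all genes tested passed (29.1% higher and 27.4% lower). For R206H within H3.1K27M, 6 passed (2 higher and 4 lower), against 20.3% of all genes (11.4% higher and 8.95% lower). For R206H without H3.1K27M, 0 passed, and 0 of all 15066 genes tested did so (0.0%), while 534 genes had an unadjusted p under 0.05 and DESeq2 called 25 genes (0.166%), none of them among the 10. Without ACVR1 WT replicate 1, 4 of the 10 passed in that last comparison, where 23.1% of all genes passed. The median log2 fold change of the 10 genes was -0.05, -0.34, -0.15 and 0.09 in these 4 comparisons, in the order given, with all genes at -0.02, -0.00176, 0.00140 and -0.01. Comparisons that use the same group share its 3 libraries, so they are not independent of each other.

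**Figure D2:**
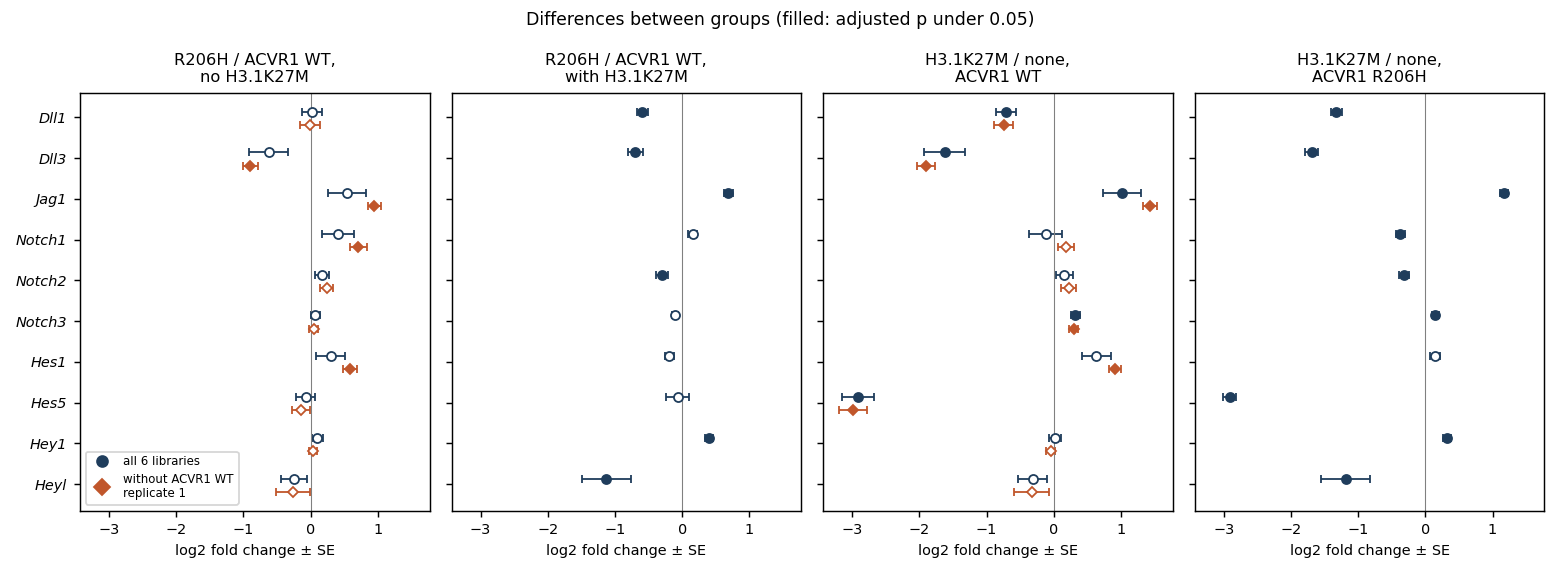
log2 fold change ± SE (horizontal axis) of the 10 genes in the 4 comparisons, from edgeR; filled symbols have an adjusted p under 0.05, circles use all 6 libraries and diamonds leave out ACVR1 WT replicate 1. *Hes5* lies near -2.9 in both H3.1K27M panels, and in the panel of R206H without H3.1K27M only the diamonds of *Dll3*, *Jag1*, *Notch1* and *Hes1* are filled.

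The stretches of DNA before the start sites of *Hes5*, *Dll3* and *Jag1* are shown because these genes had the largest range between group means. Each is the 250 bases before a RefSeq start site (GRCm38), written 5′ to 3′ on the strand of the gene, with the core letters bound by RBPJ, TGGGAA on either strand, in capitals. The *Hes5* stretch is chr4:154960673-154960922 on the + strand, the *Dll3* stretch chr7:28301786-28302035 on the - strand, and the *Jag1* stretch chr2:137116521-137116770 on the - strand.
Hes5: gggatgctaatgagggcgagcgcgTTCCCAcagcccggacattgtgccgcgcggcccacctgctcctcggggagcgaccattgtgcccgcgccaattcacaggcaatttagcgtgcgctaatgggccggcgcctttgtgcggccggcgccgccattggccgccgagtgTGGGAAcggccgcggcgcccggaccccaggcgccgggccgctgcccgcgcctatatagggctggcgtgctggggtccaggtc
Dll3: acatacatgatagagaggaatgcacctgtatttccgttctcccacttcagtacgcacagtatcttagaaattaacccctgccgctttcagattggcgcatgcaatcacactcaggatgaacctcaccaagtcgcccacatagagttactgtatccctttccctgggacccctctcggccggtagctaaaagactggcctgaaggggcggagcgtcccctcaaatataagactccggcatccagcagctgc
Jag1: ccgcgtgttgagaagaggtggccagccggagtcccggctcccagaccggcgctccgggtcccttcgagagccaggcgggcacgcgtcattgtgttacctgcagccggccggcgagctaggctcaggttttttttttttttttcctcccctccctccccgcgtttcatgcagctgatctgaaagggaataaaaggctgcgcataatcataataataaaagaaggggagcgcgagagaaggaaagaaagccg
The *Hes5* stretch held the core 2 times, once on each strand, and both matches were of the longer form GTGGGAA. One lay 77 to 83 bases before the start and the other 220 to 226 bases before it. Of all 32851 RefSeq stretches of the same length, 21.6% held TGGGAA and 5.42% held GTGGGAA on either strand. Neither was found in the stretches of *Dll3* and *Jag1*, nor in those of *Dll1* (at either of 2 starts), *Notch1*, *Notch2* and *Notch3*, which says only that these letters are not in these windows. CACGTG, the E-box of Hey factors, was in none of them (6.02% of all stretches). CACNAG, the N-box of Hes factors, was in those of *Notch1*, *Notch2* and *Notch3* (36.7% of all stretches). GGCGCC, a letter group bound by SMAD1 and SMAD5, was present 4 times in the *Hes5* stretch, of which 71.6% is G or C, and once in the stretch before the inner start of *Dll1* (9.59% of all stretches). A match is a description of the letters and not a binding site.

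*Dll1*, a Delta ligand that activates Notch on neighbouring cells, lies on chromosome 17 (15367354 to 15376872, - strand, GRCm38). It was at 117, 149 and 103 CPM in the 3 ACVR1 WT libraries and at 114, 139 and 119 CPM with ACVR1 R206H. With H3.1K27M it was at 81.1, 75.2 and 67.6 CPM with ACVR1 WT and at 50.8, 53.7 and 44.2 CPM with ACVR1 R206H. The 2 groups without H3.1K27M overlapped, and each group with H3.1K27M lay below them and apart from the other. H3.1K27M lowered *Dll1* by a log2 fold change of -0.72 ± 0.15 (SE) with ACVR1 WT (edgeR adjusted p = 0.019) and of -1.33 ± 0.08 with ACVR1 R206H (edgeR adjusted p = 8.17e-08). Within H3.1K27M, R206H lowered it by -0.59 ± 0.08 (edgeR adjusted p = 0.000164), while without H3.1K27M its log2 fold change was 0.02 ± 0.15 (edgeR adjusted p = 0.98). Without ACVR1 WT replicate 1, the values were -0.75 ± 0.14 (edgeR adjusted p = 0.00293) for H3.1K27M with ACVR1 WT and -0.01 ± 0.15 (edgeR adjusted p = 0.973) for R206H without H3.1K27M.

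*Dll3*, a divergent Delta protein that acts inside its own cell and does not activate Notch on neighbours, lies on chromosome 7 (28293553 to 28302238, - strand). In the ACVR1 WT libraries it was at 36.5, 80.7 and 70.0 CPM, replicate 1 being the low value, and with ACVR1 R206H it was at 39.6, 45.7 and 35.3 CPM. It fell to 23.2, 20.7 and 16.5 CPM with ACVR1 WT and H3.1K27M and to 13.0, 12.9 and 11.4 CPM with both mutations. The last 2 groups overlapped neither each other nor any other group. The log2 fold change for H3.1K27M was -1.63 ± 0.30 with ACVR1 WT (edgeR adjusted p = 0.014) and -1.70 ± 0.10 with ACVR1 R206H (edgeR adjusted p = 4.88e-08), and for R206H within H3.1K27M it was -0.70 ± 0.11 (edgeR adjusted p = 0.000952). For R206H without H3.1K27M the value was -0.63 ± 0.29 (edgeR adjusted p = 0.94) with all libraries and -0.90 ± 0.11 (edgeR adjusted p = 0.00313) without ACVR1 WT replicate 1. Leaving out the same library gave -1.90 ± 0.13 (edgeR adjusted p = 1.62e-05) for H3.1K27M with ACVR1 WT.

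*Jag1*, the Jagged ligand, lies on chromosome 2 (137081456 to 137116644, - strand). Its levels were 40.1, 22.1 and 18.5 CPM in the ACVR1 WT libraries and 41.7, 36.5 and 38.6 CPM with ACVR1 R206H. They were 50.6, 52.8 and 59.7 CPM with ACVR1 WT and H3.1K27M and 93.5, 81.9 and 88.1 CPM with both mutations. ACVR1 WT replicate 1 lay among the ACVR1 R206H libraries, and apart from that library the 4 groups followed one another without overlap. H3.1K27M raised *Jag1* by 1.02 ± 0.29 on the log2 scale with ACVR1 WT (edgeR adjusted p = 0.047; 1.43 ± 0.11 and 2.25e-05 without replicate 1) and by 1.17 ± 0.06 with ACVR1 R206H (edgeR adjusted p = 2.87e-08). Within H3.1K27M, R206H raised it by 0.69 ± 0.07, or 1.61-fold (edgeR adjusted p = 1.32e-05). Without H3.1K27M, R206H gave 0.54 ± 0.29 (edgeR adjusted p = 0.94), and 0.95 ± 0.10 (edgeR adjusted p = 0.00218) without ACVR1 WT replicate 1.

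The call for *Jag1* under H3.1K27M with ACVR1 WT was lost on leaving out any other single library of that comparison, and those for *Dll1* and *Dll3* on leaving out some of them. With any 1 of the 3 libraries of ACVR1 WT and H3.1K27M left out, only *Hes5* of the 10 genes still passed, and between 6.77% and 7.75% of all genes did so. When all 12 libraries were fitted together, with a spread shared by the 4 groups, the calls for R206H within H3.1K27M were lost for *Dll3* (edgeR adjusted p = 0.203) and *Jag1* (edgeR adjusted p = 0.14) and kept for *Dll1*.

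*Notch1*, the receptor with the highest CPM of the 3, lies on chromosome 2 (26457903 to 26516663, - strand). Its levels were 466, 314 and 237 CPM with ACVR1 WT, replicate 1 being the high value, and 479, 410 and 454 CPM with ACVR1 R206H. They were 281, 327 and 323 CPM with ACVR1 WT and H3.1K27M and 343, 381 and 315 CPM with both mutations. The ACVR1 R206H libraries lay above both groups with H3.1K27M. With ACVR1 R206H, H3.1K27M lowered *Notch1* by a log2 fold change of -0.37 ± 0.07 (edgeR adjusted p = 0.000783), a call lost when all 12 libraries were fitted together (edgeR adjusted p = 0.153). For R206H without H3.1K27M the value was 0.41 ± 0.24 (edgeR adjusted p = 0.94), and 0.71 ± 0.12 (edgeR adjusted p = 0.00732) without ACVR1 WT replicate 1. Within H3.1K27M it was 0.16 ± 0.07 (edgeR adjusted p = 0.139). For H3.1K27M with ACVR1 WT it was -0.12 ± 0.24 (edgeR adjusted p = 0.748), and 0.18 ± 0.12 (edgeR adjusted p = 0.251) without replicate 1.

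*Notch2* stood lowest of the receptors per length of exon, at 4.70 CPM per kb over the 12 libraries against 25.3 for *Notch1* and 26.96 for *Notch3*. Over all libraries it ranged from 41.4 to 60.1 CPM. Its group means, from lowest to highest, were ACVR1 R206H and H3.1K27M, ACVR1 WT, ACVR1 WT and H3.1K27M, and ACVR1 R206H, and no neighbours in this order were apart. With both mutations it was lower than with ACVR1 R206H (log2 fold change -0.32 ± 0.08, edgeR adjusted p = 0.00393). Set against ACVR1 WT and H3.1K27M, the log2 fold change with both mutations was -0.31 ± 0.09 (edgeR adjusted p = 0.0309), although the groups overlapped, and this call was lost on leaving out 4 of the 6 libraries in turn. R206H without H3.1K27M gave 0.17 ± 0.10 (edgeR adjusted p = 0.94; 0.24 ± 0.09 and 0.0968 without ACVR1 WT replicate 1), and H3.1K27M with ACVR1 WT gave 0.16 ± 0.12 (edgeR adjusted p = 0.392; 0.22 ± 0.11 and 0.137 without that library).

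*Notch3*, a receptor best known from vascular mural cells and also made by neural stem cells, was at 189, 211 and 189 CPM with ACVR1 WT and 211, 195 and 209 CPM with ACVR1 R206H. With H3.1K27M it was at 240, 253 and 240 CPM (ACVR1 WT) and 220, 246 and 215 CPM (ACVR1 R206H). All 6 libraries with H3.1K27M lay above all 6 without it. The log2 fold change for H3.1K27M was 0.32 ± 0.07 with ACVR1 WT (edgeR adjusted p = 0.0246) and 0.15 ± 0.05 with ACVR1 R206H (edgeR adjusted p = 0.038), and without ACVR1 WT replicate 1 the former was 0.30 ± 0.07 (edgeR adjusted p = 0.00627). Both calls were lost on leaving out 4 of the 6 libraries in turn, with edgeR adjusted p-values up to 0.115 and 0.177, and the second also with DESeq2 (adjusted p = 0.0613) and limma-voom (adjusted p = 0.0646). R206H gave 0.07 ± 0.07 without H3.1K27M (edgeR adjusted p = 0.94; 0.05 ± 0.07 and 0.662 without replicate 1) and -0.11 ± 0.05 with it (edgeR adjusted p = 0.169). Over the 5 mural and fibroblast markers, the summed level was 7.84 to 12.2 CPM with ACVR1 WT and 12.6 to 14.8 CPM with ACVR1 R206H. With H3.1K27M it was 14.7 to 15.3 CPM (ACVR1 WT) and 24.8 to 29.7 CPM (ACVR1 R206H), and *Rgs5* made up most of it. This sum was highest with both mutations, while the mean of *Notch3* was highest with ACVR1 WT and H3.1K27M.

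*Hes5*, a direct Notch target and repressor of neuronal differentiation, is a short gene of 2 exons on chromosome 4 (154960923 to 154962371, + strand). Its levels were 64.9, 86.0 and 65.7 CPM with ACVR1 WT and 59.9, 75.5 and 69.0 CPM with ACVR1 R206H. With H3.1K27M they were 11.4, 10.7 and 6.51 CPM (ACVR1 WT) and 8.73, 9.84 and 8.59 CPM (ACVR1 R206H), resting on at least 164 reads in each library. Every library with H3.1K27M lay far below every library without it, and within each pair the ACVR1 WT and ACVR1 R206H groups overlapped. H3.1K27M lowered *Hes5* by a log2 fold change of -2.92 ± 0.24 with ACVR1 WT (edgeR adjusted p = 0.00156), or 7.55-fold, and of -2.91 ± 0.09 with ACVR1 R206H (edgeR adjusted p = 8.59e-10), or 7.54-fold. R206H gave -0.07 ± 0.14 without H3.1K27M (edgeR adjusted p = 0.943) and -0.07 ± 0.17 with it (edgeR adjusted p = 0.821). Without ACVR1 WT replicate 1, H3.1K27M with ACVR1 WT gave -2.99 ± 0.21 (edgeR adjusted p = 1.54e-05), and R206H without H3.1K27M gave -0.14 ± 0.13 (edgeR adjusted p = 0.463). The call under H3.1K27M held in all alternatives, with adjusted p-values up to 0.0154 when single libraries were left out. Of the exon bases of *Hes5*, 31.8% overlap an antisense gene, *Gm20421*. Counting ignored strand and left out ambiguous reads, so the level printed is a lower one. *Gm20421* itself had 0 reads in all 12 libraries, which allows up to 3 in each on its unshared bases. Its reads on the shared bases would have been dropped too, so this count does not limit them.

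*Hes1*, another Notch target that also answers to other signals, lies on chromosome 16 (30064384 to 30067796, + strand). It was at 24.5, 16.2 and 13.8 CPM with ACVR1 WT and at 23.8, 21.4 and 21.6 CPM with ACVR1 R206H. With H3.1K27M it was at 29.2, 27.7 and 27.3 CPM (ACVR1 WT) and 22.5, 25.6 and 25.5 CPM (ACVR1 R206H). The group ACVR1 WT and H3.1K27M lay above all others, and ACVR1 WT replicate 1 lay above both other libraries of its group. With ACVR1 WT, the log2 fold change for H3.1K27M was 0.63 ± 0.21 (edgeR adjusted p = 0.0765, DESeq2 adjusted p = 0.0322), and 0.91 ± 0.10 (edgeR adjusted p = 0.000124) without replicate 1. With ACVR1 R206H it was 0.14 ± 0.07 (edgeR adjusted p = 0.122). Within H3.1K27M, R206H gave -0.19 ± 0.07 (edgeR adjusted p = 0.0539), with the groups apart. Without H3.1K27M it gave 0.30 ± 0.22 (edgeR adjusted p = 0.94), and 0.58 ± 0.11 (edgeR adjusted p = 0.00819) without replicate 1.

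*Hey1*, a target of Notch and of BMP receptor signalling, was at 38.6 CPM per kb of exon over the 12 libraries. It was at 104, 120 and 120 CPM with ACVR1 WT, 121, 129 and 116 CPM with ACVR1 R206H, and 125, 112 and 110 CPM with ACVR1 WT and H3.1K27M. With both mutations it was at 154, 140 and 162 CPM, above all 9 other libraries. R206H raised it within H3.1K27M by a log2 fold change of 0.39 ± 0.06, or 1.31-fold (edgeR adjusted p = 0.000566), and H3.1K27M raised it with ACVR1 R206H by 0.32 ± 0.06 (edgeR adjusted p = 0.000611). With ACVR1 WT, H3.1K27M gave 0.02 ± 0.09 (edgeR adjusted p = 0.882), and without H3.1K27M R206H gave 0.10 ± 0.08 (edgeR adjusted p = 0.94). These became -0.04 ± 0.07 (edgeR adjusted p = 0.628) and 0.04 ± 0.06 (edgeR adjusted p = 0.671) without ACVR1 WT replicate 1. *Id1*, the classic BMP target, was at 12.4 to 13.8 CPM with ACVR1 WT and H3.1K27M and at 96.8 to 118 CPM with both mutations (log2 fold change 2.99, edgeR adjusted p = 2.84e-10). Without H3.1K27M, *Id1* was at 11.9 to 21.9 CPM with ACVR1 WT and at 32.2 to 40.3 CPM with ACVR1 R206H, with the groups apart. Its log2 fold change there was 1.21 (edgeR adjusted p = 0.94, DESeq2 adjusted p = 0.00745), and 1.08 (edgeR adjusted p = 0.0129) without ACVR1 WT replicate 1.

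*Heyl*, the third Hey gene, was close to the limit of what was counted, at 0.178 CPM per kb and 5 to 29 reads per library. It was at 1.18, 1.24 and 1.22 CPM with ACVR1 WT, 0.90, 1.13 and 1.01 CPM with ACVR1 R206H, and 0.94, 0.81 and 1.15 CPM with ACVR1 WT and H3.1K27M. With both mutations it was at 0.72, 0.22 and 0.41 CPM, below all other libraries. Against ACVR1 WT and H3.1K27M this was a log2 fold change of -1.13 ± 0.36 (edgeR adjusted p = 0.0441), which DESeq2 did not call (adjusted p = 0.0984), and against ACVR1 R206H it was -1.19 ± 0.36 (edgeR adjusted p = 0.015). The former call was also lost with limma-voom (adjusted p = 0.0709) and on leaving out 5 of the 6 libraries in turn (edgeR adjusted p up to 0.138), and the latter on leaving out replicate 2 of ACVR1 R206H and H3.1K27M (edgeR adjusted p = 0.054). R206H without H3.1K27M gave -0.25 ± 0.20 (edgeR adjusted p = 0.94; -0.26 ± 0.25 and 0.503 without ACVR1 WT replicate 1), and H3.1K27M with ACVR1 WT gave -0.31 ± 0.21 (edgeR adjusted p = 0.348; -0.33 ± 0.26 and 0.324).

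Groups did not overlap for 1 of the 10 genes in R206H without H3.1K27M, 6 in R206H with H3.1K27M, 7 in H3.1K27M with ACVR1 WT and 9 in H3.1K27M with ACVR1 R206H. The shares of all genes tested were 9.51%, 36.5%, 45.0% and 62.8%. With 3 libraries against 3, an exact permutation test of a single gene cannot go below a two-sided p of 0.1.

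Whether R206H acted differently with and without H3.1K27M was tested as an interaction over all 12 libraries. None of the 10 genes passed, with log2 differences between -0.86 ± 0.43 (*Heyl*) and 0.30 ± 0.11 (*Hey1*), and edgeR called 11 of 15445 genes (0.0712%). Without ACVR1 WT replicate 1, 5 of the 10 passed, where 26.6% of all genes did. These were *Hes1* (-0.77 ± 0.12, edgeR adjusted p = 0.000547), *Dll1* (-0.57 ± 0.18, 0.0337), *Notch1* (-0.54 ± 0.15, 0.0178), *Notch2* (-0.53 ± 0.15, 0.0177) and *Hey1* (0.36 ± 0.10, 0.0128). For *Hes1*, *Notch1* and *Notch2* the value in ACVR1 WT replicate 1 was the highest of its group. For *Hes5* the interaction was 0.01 ± 0.26 with all libraries and 0.08 ± 0.24 without replicate 1.

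Ratios of levels per kb of exon within each library describe the balance between members, and were chosen after their values were seen. The *Jag1* to *Dll1* ratio was 0.162 ± 0.0754 (SD, n = 3) with ACVR1 WT, 0.229 ± 0.0371 with ACVR1 R206H, 0.533 ± 0.0965 with ACVR1 WT and H3.1K27M, and 1.29 ± 0.174 with both mutations. In the last group the ratios were 1.33, 1.10 and 1.44. Reads on exon bases shared with another gene were dropped, so the ratios were also taken over unshared exon bases, an alternative chosen after seeing the data, which gave 1.06, 0.876 and 1.15 in that group and 0.0853 to 0.508 in the other 9 libraries. With both mutations *Jag1* lay above *Dll1* per length in replicates 1 and 3 with either length, and in replicate 2 only when shared bases were counted. The *Hes1* to *Hes5* ratio was 0.126 to 0.265 in the 6 libraries without H3.1K27M and 1.72 to 2.81 in the 6 with it. The *Hey1* to *Hes5* ratio was 0.581 to 0.844 without H3.1K27M and 4.37 to 7.90 with it. Over unshared exon bases, *Hes1* to *Hes5* was 0.0859 to 0.181 without H3.1K27M and 1.17 to 1.92 with it, and *Hey1* to *Hes5* was 0.397 to 0.576 and 2.98 to 5.39. With either length, *Hes5* lay above *Hes1* and *Hey1* in the 6 libraries without H3.1K27M and below both in the 6 with it.

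**Figure D3:**
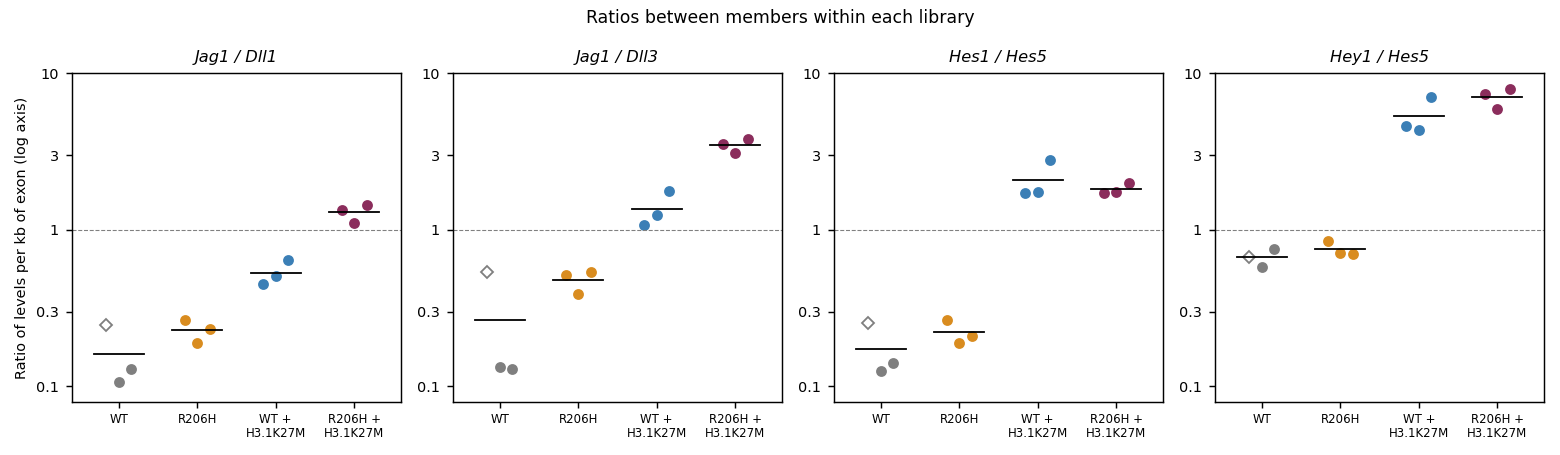
Ratio of levels per kb of exon (vertical log axis) for 4 pairs of members in the 12 libraries by group; points are libraries, lines are means, the open diamond is ACVR1 WT replicate 1 and the dashed line marks equal levels. *Hes1* and *Hey1* lie below *Hes5* in all libraries without H3.1K27M and above it in all with H3.1K27M, and the *Jag1* to *Dll1* ratio is highest in the 3 libraries with ACVR1 R206H and H3.1K27M. Lengths include exon bases shared with other genes.

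The rest of the pathway was read from a list of 51 genes, of which 48 or 49 were tested. *Hes2* and *Hes7* were too low in each comparison, and *Hes3* in that of R206H within H3.1K27M. For R206H within H3.1K27M, 11 of 48 passed (7 higher and 4 lower), where 20.3% of all genes did (11.4% higher and 8.95% lower). For R206H without H3.1K27M, 0 of 49 passed, and 20 (9 higher and 11 lower) did so without ACVR1 WT replicate 1, where 23.1% of all genes passed. Within H3.1K27M, R206H raised the ligand-like genes *Dlk2* (log2 fold change 2.24, at 0.44 to 0.90 CPM against 2.25 to 4.44 CPM) and *Dner* (0.32) and the receptor protease *Adam10* (0.27). In the same comparison *Nrarp*, a Notch-induced inhibitor of Notch signalling, fell by 1.19 on the log2 scale (edgeR adjusted p = 0.00131), from 8.81, 6.90 and 5.04 CPM to 3.34, 3.40 and 2.45 CPM, and the co-repressor *Tle2* and the ubiquitin ligase *Dtx4* fell by 0.32 and 0.17. *Nrarp* was also lower with both mutations than with ACVR1 R206H (log2 fold change -1.41, edgeR adjusted p = 4.2e-06).

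For H3.1K27M, 14 of 49 passed with ACVR1 WT (2 higher and 12 lower), where 12.6% of all genes were called higher and 10.4% lower. Without replicate 1, 31 of 49 passed (9 higher and 22 lower), against 52.6% of all genes. With ACVR1 R206H, 34 of 49 passed (15 higher and 19 lower), against 29.1% of all genes higher and 27.4% lower. In both comparisons the gamma-secretase subunit *Aph1b* fell, by 1.32 and 1.31 on the log2 scale, from 50.1 to 59.7 CPM without H3.1K27M to 20.2 to 23.5 CPM with it. The co-repressor *Tle1* fell by 1.20 and 1.38, and the atypical ligand *Dlk1* by 1.82 and 1.68. *Fbxw7*, the ubiquitin ligase subunit that marks the Notch intracellular part for breakdown, rose by 0.82 and 0.75, and *Hes6*, a Hes protein that opposes Hes1, by 0.74 and 0.50. *Lfng*, which adds sugars to Notch that favour Delta over Jagged, was 0.42 higher with ACVR1 R206H (edgeR adjusted p = 6.92e-05). *Rbpj*, the DNA-binding partner of Notch, was lower in both (log2 fold change -0.40, edgeR adjusted p = 0.0121, and -0.38, edgeR adjusted p = 8.57e-05). It falls outside the rule for named genes and is given because of that role. *Aph1b*, *Tle1*, *Dlk1*, *Fbxw7*, *Hes6* and *Rbpj* also passed in the same direction with ACVR1 WT when replicate 1 was left out, as did *Lfng* (log2 fold change 0.84, edgeR adjusted p = 0.000267, against 0.48 and 0.223 with all libraries).

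**Figure D4:**
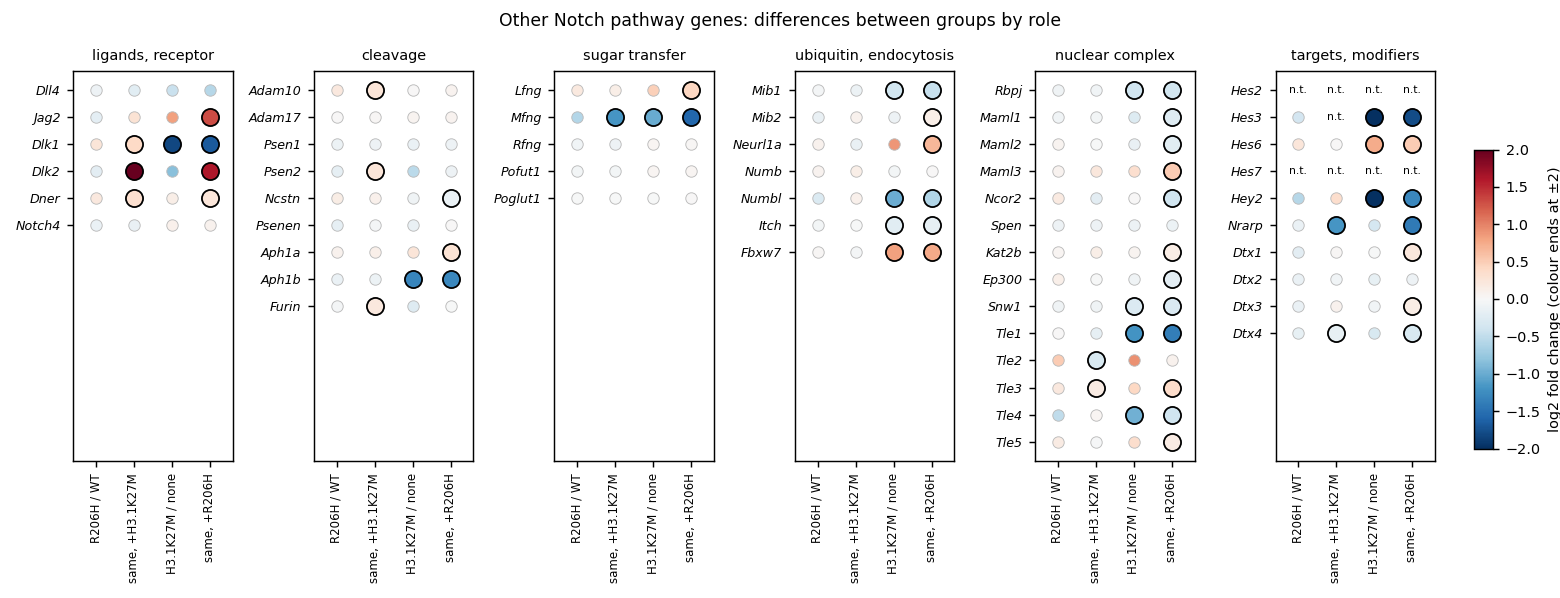
The 51 other pathway genes by role (rows) in the 4 comparisons (columns, from the left R206H against ACVR1 WT without and with H3.1K27M, then H3.1K27M against none with ACVR1 WT and with ACVR1 R206H); colour is the log2 fold change, large outlined points have an edgeR adjusted p under 0.05 and n.t. marks genes not tested. *Aph1b*, *Tle1* and *Dlk1* are outlined and blue in both H3.1K27M columns, and no point is outlined in the column of R206H without H3.1K27M, where 20 genes passed without ACVR1 WT replicate 1.

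Proneural genes are repressed by Hes proteins. *Neurog2* was at means of 0.94 and 1.10 CPM without H3.1K27M, with ACVR1 WT and ACVR1 R206H, and of 0.117 and 0.186 CPM with it, resting there on 1 read in the lowest library. *Neurod1* was at means of 0.78 and 1.08 CPM without H3.1K27M and of 1.83 and 2.29 CPM with it, in the order ACVR1 WT and ACVR1 R206H. In the ACVR1 WT libraries it was at 1.84, 0.31 and 0.19 CPM, replicate 1 being the high value. Its log2 fold change for H3.1K27M was 1.21 with ACVR1 WT (edgeR adjusted p = 0.263) and 1.09 with ACVR1 R206H (edgeR adjusted p = 0.00147). Without ACVR1 WT replicate 1, 3 of 3 proneural genes tested passed for H3.1K27M with ACVR1 WT (2 higher and 1 lower), where 52.6% of all genes did.

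Markers of other cells are to be read beside the shares of all genes called. These were 20.3% for R206H within H3.1K27M, and for H3.1K27M 23.0% with ACVR1 WT and 56.5% with ACVR1 R206H. Microglial markers, 5 genes, summed to 1.93 to 10.3 CPM in the libraries without H3.1K27M to 0.0820 to 0.285 CPM with ACVR1 WT and H3.1K27M, and to 0.397 to 0.572 CPM with both mutations. Ependymal markers summed to 29.4 to 53.7 CPM in the 6 libraries without H3.1K27M, *Tmem212* being at 0 there, and to 65.8 to 81.0 CPM with it, and 2 of 2 tested were higher with ACVR1 R206H. For R206H within H3.1K27M, 6 of 7 oligodendrocyte-lineage markers were lower (1400 to 1517 CPM against 1154 to 1254 CPM), and 3 of 5 astrocyte markers were higher and 1 lower (3445 to 3583 CPM against 4459 to 4570 CPM). For H3.1K27M with ACVR1 WT, 1 of 5 astrocyte markers was lower (*Gfap*, log2 fold change -2.44, edgeR adjusted p = 0.0431), and 1 of 7 oligodendrocyte-lineage markers was higher and 1 lower. With ACVR1 R206H, 2 astrocyte markers were higher and 2 lower, among them *Gfap* (-1.17, edgeR adjusted p = 4.94e-07), and 4 oligodendrocyte-lineage markers were higher and 2 lower. *Gfap*, an intermediate filament protein of astrocytes, had means of 1475 and 1027 CPM without H3.1K27M and of 271 and 457 CPM with it. Of 7 progenitor markers, 4 were higher and 1 was lower for R206H within H3.1K27M. For H3.1K27M with ACVR1 WT, 2 of the 7 were lower, *Sox2* (log2 fold change -0.64, edgeR adjusted p = 0.00624) and *Pax6* (-1.43, edgeR adjusted p = 0.00446). With ACVR1 R206H, 3 were lower, *Sox2* (-0.43, edgeR adjusted p = 2.23e-06), *Pax6* (-0.82, edgeR adjusted p = 5.99e-07) and *Prom1* (-0.79, edgeR adjusted p = 1.99e-05), and 1 was higher, *Vim* (0.30, edgeR adjusted p = 0.000511). Mean levels of *Pax6* were 70.3 and 68.6 CPM without H3.1K27M and 25.9 and 39.0 CPM with it. Neuronal markers, 5 genes, summed to 26.5, 121 and 157 CPM with ACVR1 WT, replicate 1 being the low value, 36.1 to 41.8 CPM with ACVR1 R206H, and 37.7 to 46.2 CPM with H3.1K27M, where 1 was higher and 1 lower with ACVR1 WT and 3 were higher and 1 lower with ACVR1 R206H. Endothelial markers summed to 1.12 to 1.98 CPM with ACVR1 WT and 1.34 to 1.85 CPM with ACVR1 R206H, with *Cldn5* at 0 in 3 of the 4 groups. They summed to 1.81 to 2.58 CPM with ACVR1 WT and H3.1K27M and to 3.31 to 5.54 CPM with both mutations. Of those tested, 1 of 3 was higher for R206H within H3.1K27M, and 1 of 1 for H3.1K27M with ACVR1 R206H.

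Marker counts against the ACVR1 WT group also changed without its replicate 1, as did the shares of all genes called. These shares were then 52.6% for H3.1K27M (26.9% higher and 25.6% lower) and 23.1% for R206H without H3.1K27M (12.1% higher and 11% lower). For H3.1K27M, 2 progenitor markers were then higher and 4 lower, 2 oligodendrocyte-lineage markers higher and 3 lower, 1 astrocyte marker higher and 2 lower, and 1 neuronal marker higher and 2 lower. For R206H without H3.1K27M, 0 markers of these lists passed with all libraries. Without replicate 1, where *Dll3*, *Jag1*, *Notch1* and *Hes1* passed, 4 of 5 astrocyte, 3 of 3 microglial, 3 of 7 oligodendrocyte-lineage and 2 of 4 neuronal markers tested were lower, and 2 progenitor markers were higher and 1 lower. The part of these markers in the results for the Notch genes was not tested.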

How the data were processed

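Per the labels and the methods of the study, paired-end reads were aligned by the authors in Galaxy with STAR 2.6.0b-1, to mm10 (GRCm38), and counted per Ensembl gene with HTSeq (union mode, no strand, minimum alignment quality 10, ambiguous reads dropped). The deposited values are raw counts for 54532 genes in each of 12 samples, with no summary rows. Overlapping genes thus lose shared reads: 31.8% of the exon bases of *Hes5*, 20.6% of *Dll1*, 9.76% of *Notch1*, 6.03% of *Notch3* and 5.02% of *Notch2* are shared.

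From these counts, genes averaging 10 normalized counts or more were kept and tested with edgeR 4.0.16 (R 4.3.3; TMM, quasi-likelihood, Benjamini-Hochberg), each comparison on its own 6 samples and the interaction on 12. DESeq2 1.42.0, other scaling and filters, 1 joint fit, a replicate block, limma 3.58.1 (voom with sample quality weights) and leaving out each library were alternatives. CPM are TMM-scaled, and lengths are merged GENCODE M21 exons. Promoter windows are RefSeq's (GRCm38), held for 7 of the 10 members. Counting error and depth limit single values: *Heyl* rests on 5 to 29 reads. The fits were tested on simulated data. Members and lists were chosen with earlier results of these data known. All 10 members are named in every comparison. Other pathway genes were named if past the threshold with groups apart, at most 3 per direction by adjusted p, and *Acvr1* and *Id1* as checks. For the 3 members with the widest group means, the 2 genes nearest in pattern were named. On the lists, 1 gene is not reported here.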

Additional observations from a re-analysis of the deposited data

How the results depend on the processing

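Of 697 values recomputed under an alternative, 598 kept their direction and side of the threshold, 45 lost the call, 28 gained it and 26 turned in sign. For R206H without H3.1K27M, voom with sample quality weights and the fit without ACVR1 WT replicate 1 each called 4 of the 10 genes, where 24.4% and 23.1% of all genes passed against 0.0% at first, and leaving out single libraries gave 0 to 4. For R206H with H3.1K27M, 1 fit of all 12 libraries called 2, with 2.84% of all genes against 20.3% (single libraries left out, 4 to 6, with at least 12.3%). For H3.1K27M with ACVR1 WT, leaving out single libraries gave 1 to 6, with 6.77% to 52.6% of all genes, and with ACVR1 R206H 7 to 9, with 49.5% to 53.7%. For the interaction, voom called 4, with 29.8% of all genes against 0.0712%, and leaving out single libraries gave 0 to 5, the 5 being without ACVR1 WT replicate 1, with 26.6%.

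Whether replicate numbers pair libraries across groups could not be decided. Between libraries of the same number, correlations of deviations from the group means ran from -0.158 to 0.477 for R206H without H3.1K27M. In the other comparisons they ran from -0.066 to 0.117, and libraries of unlike number were not compared. The replicate block lowered the calls for H3.1K27M with ACVR1 WT from 5 to 3, ending those for *Notch3* (edgeR adjusted p = 0.0586) and *Jag1* (edgeR adjusted p = 0.0723), while the share of all genes called went from 23.0% to 13.1%.

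Signs turned for some values, not all of them near 0 and none past the threshold. With voom these were *Notch3* (-0.00195) and *Dll1* (-0.19) for R206H without H3.1K27M, *Notch1* (0.055) and *Hey1* (-0.0561) for H3.1K27M with ACVR1 WT, and *Dll3* (0.29) and *Jag1* (-0.11) for the interaction. Without a filter, the interaction of *Hes5* was -0.0366. With single libraries left out, *Dll1* ran from -0.0905 to 0.18 and *Hes5* from -0.15 to 0.0661 for R206H without H3.1K27M, *Hes5* from -0.29 to 0.0888 for R206H with H3.1K27M, and *Notch1* from -0.32 to 0.18 and *Hey1* from -0.0428 to 0.0599 for H3.1K27M with ACVR1 WT. For the interaction, *Dll3* ran from -0.29 to 0.21, *Jag1* from -0.25 to 0.36 and *Hes5* from -0.21 to 0.16. *Heyl* could not be fitted where at least 10 counts were required in every library of a comparison with ACVR1 R206H and H3.1K27M. The causes were not tested.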

Other observations

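The genes whose levels followed *Hes5*, *Dll3* and *Jag1* most closely were looked up over the 12 libraries among 15445 genes, by the root mean square difference of centred log2 CPM. For *Hes5* the nearest was *Draxin*, an axon guidance protein (difference 0.222), with group means of 299 and 294 CPM without H3.1K27M and 40.7 and 42.9 CPM with it. The next was *Pde9a* (0.271), a cyclic GMP phosphodiesterase, with means of 65.7, 53.8, 10.7 and 9.70 CPM in the same order. For *Dll3* the nearest were *Dmrta1* (0.142), a transcription factor of neural progenitors, and *Epb41* (0.155), a membrane skeleton protein. For *Jag1* they were *Mn1* (0.143) and *Chst2* (0.148), and *Chst2*, a sulfotransferase, had group means of 188 and 268 CPM without H3.1K27M and 416 and 576 CPM with it. The points share libraries and depth, so these are descriptions of likeness only.

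*Hey2*, the Hey gene outside the 10 members, was at 6.84, 22.7 and 19.2 CPM with ACVR1 WT, at 8.24 to 14.4 CPM with ACVR1 R206H, and at 3.05 to 5.35 CPM in the 6 libraries with H3.1K27M. It was named after its values were seen. Its log2 fold change for H3.1K27M was -2.22 with ACVR1 WT (edgeR adjusted p = 0.0169; -2.59 and 4.76e-06 without replicate 1) and -1.30 with ACVR1 R206H (edgeR adjusted p = 0.000289). *Jag2* was at 1.25 to 2.73 CPM without H3.1K27M and at 2.87 to 4.33 CPM with it, and with ACVR1 R206H its log2 fold change was 1.31 (edgeR adjusted p = 9.97e-05), while with ACVR1 WT it was 0.82 (edgeR adjusted p = 0.0955; 0.60 and 0.0794 without replicate 1). *Notch4* and *Dll4*, known from endothelium, had group means of 1.66 to 1.95 CPM and 1.67 to 2.67 CPM and passed in no comparison with all libraries.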
